A study of Mus musculus with 12 samples.

Results

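Tumours driven by a mutant human YAP1 were compared 3 days after removal of doxycycline, on which expression of the transgene depends (OFF3, 3 arrays), with tumours at day 0 of removal (TUM, 3 arrays). These 6 arrays belong to a series of 12, and the comparison covered all 19937 genes whose probe sets carried a single gene symbol, with the probe set of highest mean level kept for each gene. The grafted cells came from C57BL/6 donors that carried Myf5Cre, R26-LSL-rtTA and Col1a-Teto-hYAP1 S127A, so cells with a history of Myf5, and no others, could make the doxycycline-dependent activator of the transgene. Donors received doxycycline for 4 weeks. Interstitial cells of their hindlimb muscle were then placed in the gastrocnemius of NOD/SCID hosts, which lack functional T and B cells and had themselves received doxycycline. For OFF3 the drug was withheld from tumour-bearing hosts for 3 days, and for TUM for 0 days. A further group was taken at 6 days (OFF6, 3 arrays), and uninduced mice of the donor genotype gave hindlimb muscle as the control (CTL, 3 arrays). Age and sex were not given in the labels used here. The labels do not say that the tumours of a group came from separate hosts or donors. Each p-value thus speaks of the spread among the arrays of the series alone, which may be technical.

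YAP1 is the transcriptional coactivator at the end of the Hippo pathway. The kinases LATS1 and LATS2 phosphorylate it and keep it in the cytoplasm, and the S127A mutation removes a phosphorylation site through which it is held there. In the nucleus it binds the TEAD factors, which recognise the letters GGAATG in DNA. In skeletal muscle, active YAP is known to favour the growth of myogenic progenitors over their differentiation. The series title names rhabdomyosarcoma, a tumour whose cells carry out the muscle programme incompletely. The comparison asks what the tumours express early after the oncogene is withdrawn.

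Values are log2 intensities, and a difference is OFF3 minus TUM, on the log2 scale, ± the standard error of the fit (n = 3 arrays in each group). A gene is said to rise or fall where limma's Benjamini-Hochberg adjusted p was under 0.05. By this rule 5868 genes (29.4%) changed, 2671 of them upwards (13.4%) and 3197 downwards (16%), and the median difference of all genes was 0.02. At least 2-fold changes were seen in 760 genes (3.81%), 365 higher (1.83%) and 395 lower (1.98%). All OFF3 arrays were beyond the TUM range in 8939 genes (44.8%), above it in 4412 (22.1%) and below it in 4527 (22.7%). The counts of each gene list are read against these shares.

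Across genes, arrays of the same group correlated at 0.9947 to 0.9978 in OFF3 and 0.9981 to 0.9989 in TUM, and arrays of different groups at 0.9752 to 0.9832. The first principal component of the 6 arrays held 83.6% of the variance and separated OFF3 (-24.5, -26.6 and -34.9) from TUM (28.6, 26.8 and 30.5). The second, with 9.3%, spread the OFF3 arrays (16.2, 2.6 and -15.5), with replicates 1 and 3 at opposite ends. On the first component OFF3 replicate 3 lay furthest from TUM. It was the highest OFF3 array in 27 of 27 Z-disc genes and the lowest in 28 of 31 mitosis genes, against 7411 and 7782 of all 19937 genes. Where a list count moved by more than 2 genes, or a printed median by over 1.5 times, on leaving it out, the value without it is given too. The muscle identity gene Myod1 read 10.67 to 10.77 in OFF3 and 10.19 to 10.24 in TUM, beside a CTL mean of 9.69. Des, the intermediate filament desmin, read 12.30 to 12.46 in OFF3 and 12.13 to 12.24 in TUM, beside a CTL mean of 12.68.

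**Figure D1:**
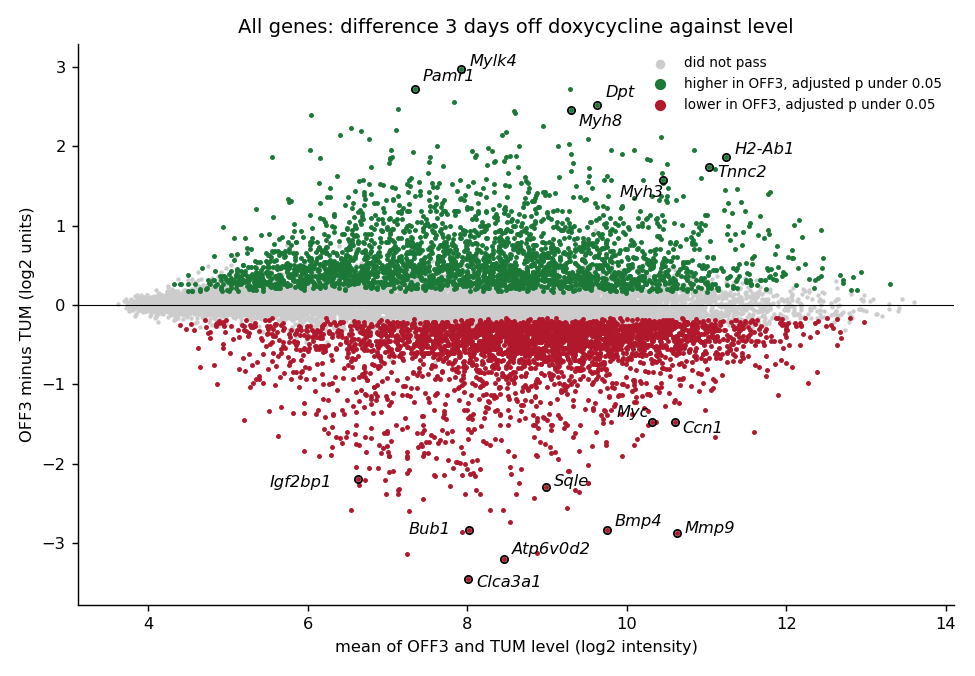
Each point is a gene, with the mean log2 intensity of the OFF3 and TUM groups on the horizontal axis and the difference OFF3 minus TUM (log2 units) on the vertical axis. Green points are the 2671 genes that rose and red points the 3197 that fell, grey points did not pass, and named genes are ringed, from Mylk4 at 2.97 to Clca3a1 at -3.46.

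The largest rises mixed muscle and matrix genes with genes of other kinds. Mylk4, a myosin light chain kinase of striated muscle, led them with 9.20, 9.16 and 9.87 in OFF3 against 6.48, 6.44 and 6.40 in TUM (2.97 ± 0.14, adjusted p = 4e-08). Pamr1, a secreted protease-like protein found in regenerating muscle, read 8.81, 8.67 and 8.61 in OFF3 and 5.94, 5.97 and 6.01 in TUM (2.72 ± 0.10). The groups were far apart in both genes, although OFF3 replicate 3 carried a larger Mylk4 value than the other OFF3 arrays. Next came the Wnt-binding Sfrp4 (2.56 ± 0.45), the matrix proteins Dpt (2.52 ± 0.21), Itih5 (2.47 ± 0.23), Itgbl1 (2.45 ± 0.12) and Lum (2.26 ± 0.26), perinatal myosin Myh8 (2.46 ± 0.17), the membrane protein Lrrc15 of activated fibroblasts (2.42 ± 0.18), Retnla, made by alternatively activated macrophages (2.39 ± 0.17), the vessel and platelet protein Mmrn1 (2.23 ± 0.17) and the iron exporter Slc40a1 (2.21 ± 0.18). Sfrp4 rested most on a single array, with 8.52, 8.54 and 10.27 in OFF3 and 6.44, 6.72 and 6.49 in TUM. Groups that did not overlap were a condition for a place among these largest rises. Retnla averaged 7.24 in OFF3 and 4.85 in TUM but 10.05 in CTL, whereas the macrophage genes described below summed lowest in CTL.

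The largest falls named epithelial, osteoclast, mitotic and signalling genes. Clca3a1, a secreted regulator of chloride channels, read 6.49, 6.13 and 6.23 in OFF3 and 9.78, 9.65 and 9.79 in TUM (-3.46 ± 0.13, adjusted p = 9.5e-09). Its near-identical relative Clca3a2 differed by -2.86 ± 0.23, and the array may not tell the pair apart. Bmp4, a ligand of the bone morphogenetic protein family, stood at 8.38, 8.51 and 8.10 in OFF3 against 11.20, 11.06 and 11.25 in TUM (-2.84 ± 0.13, adjusted p = 3.04e-08). Its CTL mean was 8.56, close to OFF3. The others were Atp6v0d2 (-3.21 ± 0.15), Oscar (-3.14 ± 0.10) and Mmp9 (-2.88 ± 0.23), described with the osteoclast genes, the cornified envelope protein Sprr1a (-3.13 ± 0.20), the spindle checkpoint kinase Bub1 (-2.84 ± 0.26), the AKT-pathway membrane protein Dynap (-2.74 ± 0.18), the hyaluronan receptor and spindle protein Hmmr (-2.60 ± 0.11), the RNase P subunit Rpp25 (-2.59 ± 0.13) and the endocytic receptor Lrp2 (-2.58 ± 0.06). Lrp2 had the tightest OFF3 values of these, 5.24, 5.24 and 5.27, which is close to its CTL mean of 5.30.

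The gene withdrawn was human, and no probe set for it is known among those used. The mouse Yap1 probe set read 9.52, 9.61 and 9.59 in OFF3 and 9.83, 9.88 and 9.86 in TUM (-0.29 ± 0.07, adjusted p = 0.00923). OFF3 thus lay at the CTL mean of 9.56, and how far this probe set reads the human transcript is not known. Of 24 known YAP and TEAD target genes measured, 15 fell and 3 rose, where 16% and 13.4% of all genes did, and the median was -0.54.

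The bases before the start site of the target genes that fell most are shown because they hold the letters TEAD factors bind. Among 15562 measured genes with a promoter in the RefSeq table (GRCm38.p6, 250 bases before each listed start, either strand), 13.2% held GGAATG or its other-strand form CATTCC, and 7 of 18 target genes did (38.9%). The same share stood in the Hippo pathway list, also 7 of 18. The last 200 bases before the start of Ajuba, Amotl2, Ccn1 and Ankrd1 read, 5′ to 3′ in the gene's direction with that element in capitals:
Ajuba (chr14:54577662-54577861, minus strand): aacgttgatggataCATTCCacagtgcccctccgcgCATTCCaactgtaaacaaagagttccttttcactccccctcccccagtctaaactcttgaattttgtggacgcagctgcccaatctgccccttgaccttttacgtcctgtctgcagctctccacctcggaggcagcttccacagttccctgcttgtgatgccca
Amotl2 (chr9:102717604-102717803, plus strand): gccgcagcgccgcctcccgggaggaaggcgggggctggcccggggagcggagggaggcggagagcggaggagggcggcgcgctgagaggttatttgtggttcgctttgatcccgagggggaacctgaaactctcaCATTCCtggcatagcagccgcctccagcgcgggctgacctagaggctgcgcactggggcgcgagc
Ccn1 (chr3:145649986-145650185, minus strand): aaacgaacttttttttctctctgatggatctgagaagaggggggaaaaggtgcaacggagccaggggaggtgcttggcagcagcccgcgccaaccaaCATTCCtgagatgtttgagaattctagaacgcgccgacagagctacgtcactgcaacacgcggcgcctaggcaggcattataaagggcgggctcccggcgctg
Ankrd1 (chr19:36119845-36120044, minus strand): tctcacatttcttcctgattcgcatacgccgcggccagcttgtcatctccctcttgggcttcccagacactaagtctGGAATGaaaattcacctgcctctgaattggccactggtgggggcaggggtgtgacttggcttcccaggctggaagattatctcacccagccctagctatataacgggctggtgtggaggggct
The capitals mark a match of letters and no more than that.

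Feedback and scaffold genes of the pathway moved most among the targets. Ajuba, a LIM protein that binds the LATS kinases, read 8.15, 8.0 and 7.60 in OFF3 and 9.80, 9.89 and 9.80 in TUM (-1.91 ± 0.12, adjusted p = 2.93e-07). Amotl2, an angiomotin that holds YAP at junctions, read 8.03, 8.21 and 8.28 in OFF3 and 10.06, 10.07 and 9.94 in TUM (-1.85 ± 0.08, adjusted p = 2.73e-08). Both groups were clear of each other by more than a log2 unit. Ccn1, a matricellular protein and a standard YAP target, read 9.91, 9.87 and 9.80 in OFF3 and 11.34, 11.34 and 11.33 in TUM (-1.48 ± 0.07, adjusted p = 2.77e-08). Ankrd1, a cardiac and muscle ankyrin repeat protein, read 10.47, 10.23 and 10.26 in OFF3 and 11.67, 11.60 and 11.67 in TUM (-1.33 ± 0.16, adjusted p = 5.68e-05), and Lats2, a kinase that inhibits YAP, read 9.51, 9.60 and 9.36 in OFF3 and 10.51, 10.51 and 10.51 in TUM (-1.02 ± 0.07, adjusted p = 4.87e-07). The scaffold Wwc1 (-1.04 ± 0.08) and the ectonucleotidase Nt5e (-0.89 ± 0.14) also fell. Ccn2, the other widely used target, did not follow them, with 11.28, 11.16 and 11.00 in OFF3 and 11.00, 11.08 and 11.11 in TUM (0.08 ± 0.07, adjusted p = 0.459), and its groups overlapped. Against the majority, tissue factor F3 rose by 1.22 ± 0.19, the stress protein Gadd45a by 0.94 ± 0.12 and the angiomotin Amotl1 by 0.43 ± 0.12. The summed linear intensity of the 24 targets was 18400 to 19600 in OFF3 and 27900 to 28200 in TUM, beside 12500 to 13300 in CTL.

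Of 22 Hippo pathway genes 3 rose and 5 fell (median -0.14), and 8 fell with arrays centred on their median or from the 6 arrays alone and 11 with array weights. The atypical cadherins Fat4 (1.19 ± 0.12) and Dchs1 (0.86 ± 0.11), a receptor and ligand pair upstream of Hippo, rose, as did the YAP paralogue Wwtr1 (0.34 ± 0.07). The TEAD cofactor Vgll3 (-0.87 ± 0.07), the FERM protein Frmd6 (-0.72 ± 0.10) and the tumour suppressor Nf2 (-0.55 ± 0.08) fell. Of the DNA-binding partners, Tead1 differed by -0.24 ± 0.09 and Tead4 by 0.16 ± 0.21, and neither passed.

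**Figure D2:**
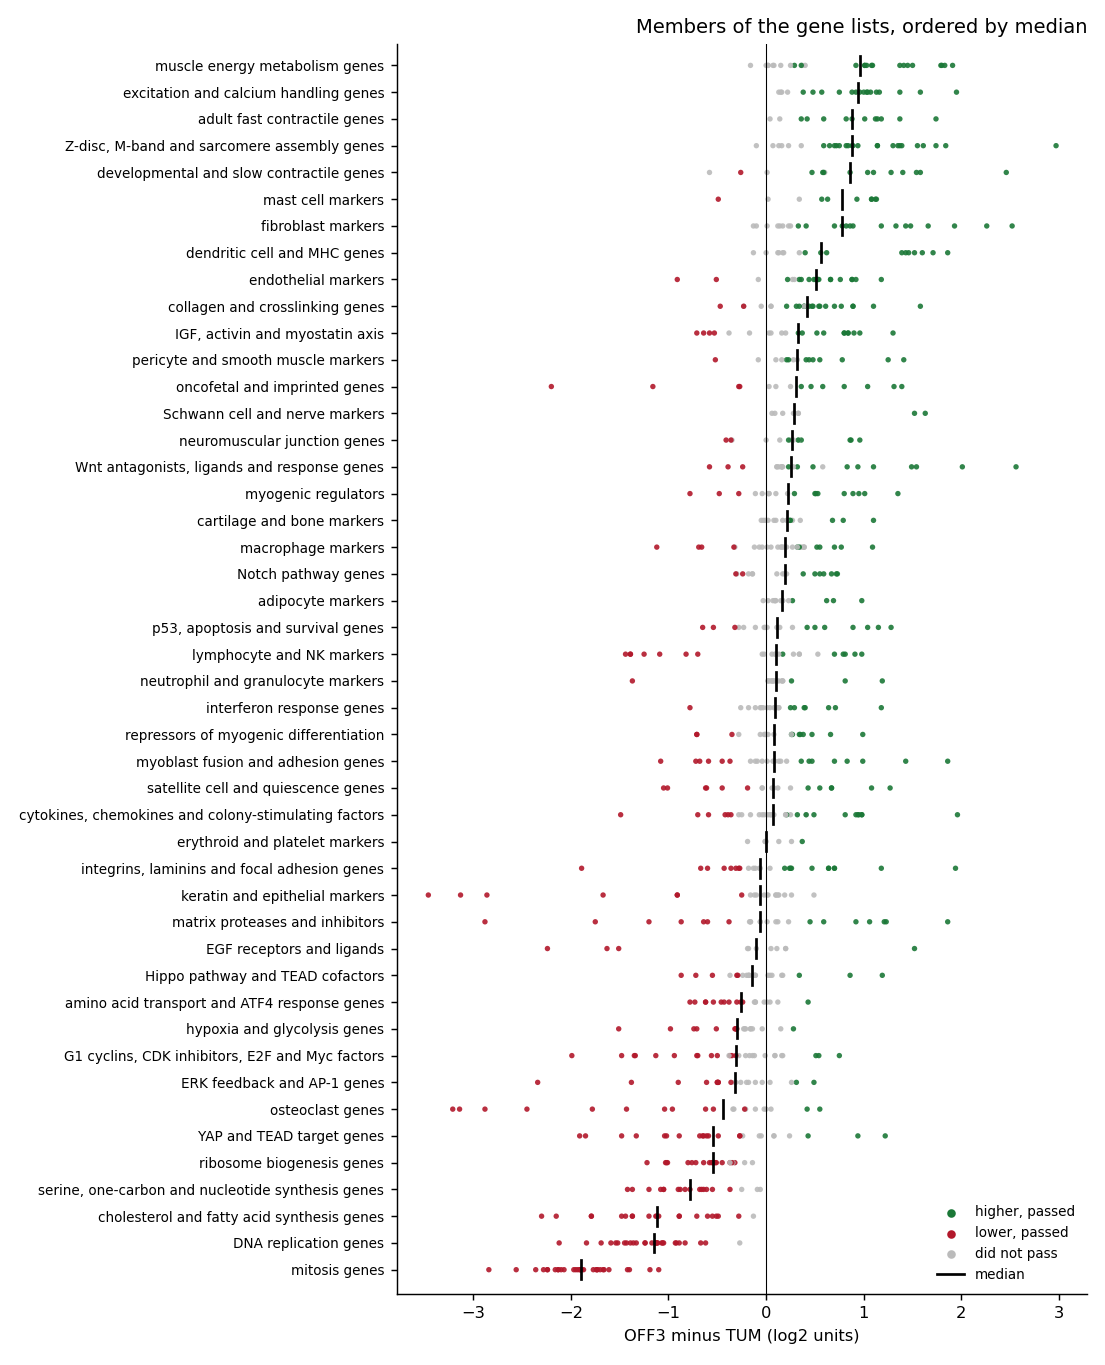
Each row is one of 46 gene lists, ordered by median, and each point a member, with the difference OFF3 minus TUM (log2 units) on the horizontal axis. Green members rose, red members fell, grey members did not pass and the black tick is the median, which ran from -1.90 in mitosis genes to 0.96 in muscle energy genes.

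Genes of cell division fell together. All 31 mitosis genes fell, with a median of -1.90, and 27 of 28 DNA replication genes fell, with a median of -1.15, where 16% of all genes did. OFF3 replicate 3 was the lowest OFF3 array in 28 of the 31 and 27 of the 28. Without it the counts were 31 and 27 and the medians -1.79 and -1.05. In bulk tumours, fewer cells of a type and less RNA per cell cannot be told apart, here and in every list that follows.

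The promoters of 3 mitosis genes are shown for 2 elements known from cell cycle genes, the CHR element (TTTGAA, other strand TTCAAA) and the CCAAT box (CCAAT, other strand ATTGG). The CHR letters stood in 10 of 25 mitosis promoters (40%) and in 3 of 24 replication promoters (12.5%), beside 15.7% of all genes, 5 of 14 myogenic regulators (35.7%) and 5 of 15 fibroblast genes (33.3%). The CCAAT letters stood in 18 of 25 mitosis promoters (72%) and 16 of 24 replication promoters (66.7%), beside 38.9% of all genes and 9 of 12 dendritic cell and MHC genes (75%). Those elements are in capitals:
Top2a (chr11:99024190-99024389, minus strand): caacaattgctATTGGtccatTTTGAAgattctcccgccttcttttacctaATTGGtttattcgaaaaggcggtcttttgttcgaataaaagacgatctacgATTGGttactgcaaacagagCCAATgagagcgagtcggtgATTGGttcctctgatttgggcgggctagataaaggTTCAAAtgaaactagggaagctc
Ect2 (chr3:27153879-27154078, minus strand): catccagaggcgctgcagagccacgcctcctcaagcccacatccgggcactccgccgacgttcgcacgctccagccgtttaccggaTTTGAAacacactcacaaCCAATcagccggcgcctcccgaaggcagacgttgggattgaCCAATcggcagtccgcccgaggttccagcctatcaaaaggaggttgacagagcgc
Cdk1 (chr10:69352913-69353112, minus strand): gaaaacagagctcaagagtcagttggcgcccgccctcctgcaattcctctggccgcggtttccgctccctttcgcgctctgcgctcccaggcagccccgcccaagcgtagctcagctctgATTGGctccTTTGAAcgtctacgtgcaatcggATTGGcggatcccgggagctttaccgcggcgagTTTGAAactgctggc

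Bub1, a kinase of the spindle checkpoint, read 7.19, 6.72 and 5.89 in OFF3 and 9.40, 9.43 and 9.49 in TUM (-2.84 ± 0.26, adjusted p = 4.62e-06). Ect2, which drives the cleavage furrow, read 8.30, 8.12 and 7.49 in OFF3 and 10.62, 10.58 and 10.39 in TUM (-2.56 ± 0.22, adjusted p = 2.54e-06). Plk1, a kinase of mitotic entry, read 8.62, 8.36 and 7.67 in OFF3 and 10.58, 10.58 and 10.59 in TUM (-2.36 ± 0.21, adjusted p = 4.48e-06). The TUM arrays of Plk1 lay within 0.01 of each other, while its OFF3 arrays spanned 7.67 to 8.62. Topoisomerase Top2a read 8.73, 8.43 and 8.02 in OFF3 and 10.64, 10.56 and 10.72 in TUM (-2.24 ± 0.22, adjusted p = 1.01e-05) and the cyclin-dependent kinase Cdk1 8.97, 8.82 and 8.85 in OFF3 and 10.60, 10.57 and 10.64 in TUM (-1.73 ± 0.18, adjusted p = 1.49e-05). The proliferation marker Mki67 fell by 1.67 ± 0.12 and the kinetochore motor Cenpe by 2.28 ± 0.15, while the kinetochore gene Ndc80 had the smallest change of the list (-1.10 ± 0.12). The sum over the list was 5320 to 7790 in OFF3 and 25200 to 25700 in TUM, and 2410 to 2700 in CTL.

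Among replication genes, the polymerase subunit Pole changed most, with 7.25, 7.15 and 6.63 in OFF3 and 9.16, 9.09 and 9.15 in TUM (-2.12 ± 0.14, adjusted p = 4.29e-07). The nucleotide enzymes Rrm2 (-1.84 ± 0.18) and Tk1 (-1.69 ± 0.08), the primase Prim1 (-1.59 ± 0.18) and the helicase subunit Mcm2 (-1.45 ± 0.10) fell too. Pcna, the sliding clamp of the polymerases, was the gene that did not pass, with 11.19, 10.92 and 10.74 in OFF3 and 11.30, 11.26 and 11.11 in TUM (-0.27 ± 0.13, adjusted p = 0.137).

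Control of the G1 phase was mixed, with 13 falls and 3 rises among 27 genes (median -0.31). OFF3 replicate 3 was the lowest OFF3 array in 22 of them, and without it 11 fell, with a median of -0.19. E2f7, a repressor of E2F targets, read 6.85, 7.07 and 6.82 in OFF3 and 8.87, 8.85 and 8.99 in TUM (-1.99 ± 0.08, adjusted p = 1.5e-08). Myc, a growth-promoting factor, read 9.82, 9.62 and 9.31 in OFF3 and 11.00, 11.13 and 11.05 in TUM (-1.48 ± 0.12, adjusted p = 1.65e-06). Cyclins Ccne2 (-1.35 ± 0.10), Ccne1 (-1.34 ± 0.12) and Ccnd1 (-1.13 ± 0.09) fell. Those that rose were brakes on growth, namely the cyclin-dependent kinase inhibitor Cdkn1c (0.75 ± 0.15), the Myc antagonist Mxd4 (0.54 ± 0.08) and the retinoblastoma gene Rb1 (0.51 ± 0.12). The inhibitor Cdkn1a is not analysed here. Ribosome assembly genes fell in 20 of 24 with no rise (median -0.54), led by Rrp9 (-1.22 ± 0.11), Dkc1 (-1.03 ± 0.10), Utp20 (-1.02 ± 0.09) and Nop58 (-1.01 ± 0.08), which build or modify ribosomal RNA. Without OFF3 replicate 3, 17 of the 24 fell.

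Genes of sterol and fatty acid synthesis fell. Of 21 measured, 20 fell and none rose, with a median of -1.12, and without OFF3 replicate 3 the count was again 20 with a median of -1.06. Sqle, squalene epoxidase, read 7.87, 7.98 and 7.67 in OFF3 and 10.06, 10.16 and 10.20 in TUM (-2.30 ± 0.12, adjusted p = 5.16e-08). Cyp51, the lanosterol demethylase, read 6.93, 6.87 and 6.76 in OFF3 and 9.07, 8.83 and 9.12 in TUM (-2.15 ± 0.11, adjusted p = 7.89e-08). Lss, which closes the sterol rings, read 7.14, 7.07 and 6.87 in OFF3 and 8.82, 8.82 and 8.81 in TUM (-1.79 ± 0.11, adjusted p = 2.28e-07). No OFF3 array of these 3 genes came within a log2 unit of a TUM array. Insig1, a sterol-sensing protein that is itself a target of the SREBP factors, read 9.07, 9.04 and 9.07 in OFF3 and 10.51, 10.58 and 10.54 in TUM (-1.48 ± 0.10, adjusted p = 4.62e-07), and Hmgcs1, at the head of the pathway, read 8.78, 8.59 and 8.49 in OFF3 and 9.74, 9.74 and 9.67 in TUM (-1.10 ± 0.08, adjusted p = 6.36e-07). Fatty acid genes went with them, with Elovl6 at -1.79 ± 0.14 and Fasn at -1.12 ± 0.07. Both SREBP genes fell less, Srebf2 by 0.51 ± 0.09 and Srebf1 by 0.28 ± 0.07. Dhcr7, which makes the last step to cholesterol, did not pass (-0.13 ± 0.20, adjusted p = 0.721) and was the exception of the list. The summed intensity was 11500 to 12900 in OFF3 and 24000 to 24800 in TUM, and the CTL range of 13100 to 13900 lay just above OFF3.

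The promoters of 3 sterol genes are shown because the CCAAT letters stood in 12 of 15 promoters of the list (80%), beside 38.9% of all genes. The spelled sterol regulatory element TCACNCCAC was found in Hmgcs1 alone of the 15 (6.67%), beside 1.2% of all genes, and in 1 of 11 osteoclast genes (9.09%). CCAAT or ATTGG is in capitals in all 3, and in Hmgcs1 the sterol element as well:
Cyp51 (chr5:4104698-4104897, minus strand): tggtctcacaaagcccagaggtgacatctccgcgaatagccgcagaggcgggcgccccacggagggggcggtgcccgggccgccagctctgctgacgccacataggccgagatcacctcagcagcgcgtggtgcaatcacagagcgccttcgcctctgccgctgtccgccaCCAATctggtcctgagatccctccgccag
Lss (chr10:76531405-76531604, plus strand): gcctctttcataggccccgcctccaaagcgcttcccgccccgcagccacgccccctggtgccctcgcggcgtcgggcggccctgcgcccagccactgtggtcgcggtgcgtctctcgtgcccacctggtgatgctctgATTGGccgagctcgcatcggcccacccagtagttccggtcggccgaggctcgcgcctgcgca
Hmgcs1 (chr13:119690151-119690350, plus strand): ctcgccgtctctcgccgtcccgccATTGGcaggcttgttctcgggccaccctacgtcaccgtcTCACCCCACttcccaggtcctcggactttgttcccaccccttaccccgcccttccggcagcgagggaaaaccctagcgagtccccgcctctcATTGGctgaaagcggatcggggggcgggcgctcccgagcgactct

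Synthesis of serine, one-carbon units and nucleotides fell in 16 of 19 genes, with no rise and a median of -0.78. Psat1, an enzyme of serine synthesis, read 9.54, 9.46 and 9.14 in OFF3 and 10.76, 10.70 and 10.79 in TUM (-1.37 ± 0.13, adjusted p = 6.09e-06). Its partner Phgdh (-1.20 ± 0.20), the mitochondrial one-carbon enzyme Shmt2 (-1.05 ± 0.16) and the pyrimidine enzymes Ctps (-1.42 ± 0.12), Umps (-1.08 ± 0.12) and Cad (-0.83 ± 0.08) fell with it. Amino acid uptake and the ATF4 programme gave 11 falls and 1 rise among 19 (median -0.26), with 8 falls without OFF3 replicate 3, among them the transporter Slc1a5 (-0.78 ± 0.07), asparagine synthetase Asns (-0.73 ± 0.17) and, as the rise, the TOR inhibitor Ddit4 (0.43 ± 0.10). Hypoxia and glycolysis genes gave 9 falls and 1 rise among 19 (median -0.30). Phosphofructokinase Pfkl (-1.51 ± 0.15), the glucose transporter Slc2a1 (-0.98 ± 0.11) and Vegfa (-0.74 ± 0.08) fell. The muscle aldolase Aldoa rose by 0.28 ± 0.07, a call lost when adjusted p under 0.01 was required.

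Ligands of the EGF family and output genes of the ERK pathway changed in part. Among 11 EGF family genes 3 fell and 1 rose. The ligand Nrg1 read 7.72, 7.70 and 7.18 in OFF3 and 9.75, 9.71 and 9.85 in TUM (-2.24 ± 0.16, adjusted p = 7.54e-07), and Hbegf read 8.58, 8.45 and 8.46 in OFF3 and 10.02, 10.01 and 9.99 in TUM (-1.51 ± 0.14, adjusted p = 4.57e-06), with Ereg (-1.63 ± 0.11) the other fall. The receptor Erbb3, which binds Nrg1, moved the other way, with 9.29, 9.17 and 8.86 in OFF3 and 7.55, 7.62 and 7.59 in TUM (1.52 ± 0.20, adjusted p = 9.48e-05). Egfr did not pass (-0.10 ± 0.09). Of 20 ERK and AP-1 genes 9 fell and 2 rose (median -0.32). Fosl1, an AP-1 subunit, read 8.39, 8.36 and 7.77 in OFF3 and 10.52, 10.52 and 10.51 in TUM (-2.34 ± 0.20, adjusted p = 2.93e-06). The ERK phosphatases Dusp4 (-1.38 ± 0.15) and Dusp5 (-0.90 ± 0.08) and the feedback inhibitor Spry1 (-0.61 ± 0.09) fell, while its relative Spry2 rose by 0.49 ± 0.10.

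**Figure D3:**
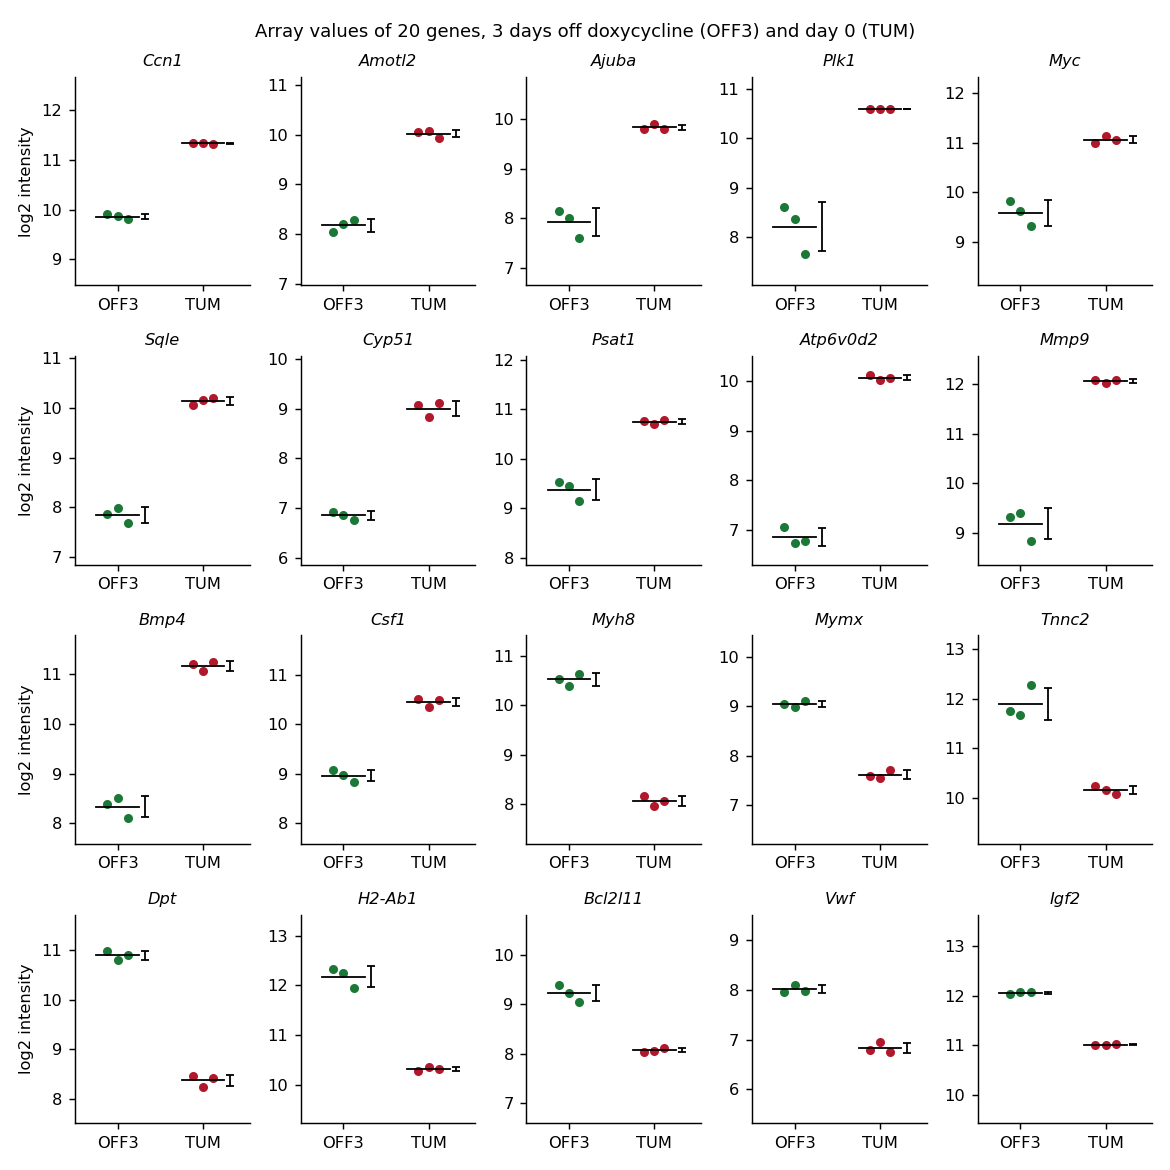
Log2 intensity of 20 genes, with OFF3 left of TUM in each panel. Points are single arrays (3 per group), the line is the mean and the bar the SD. In Ccn1, Plk1, Sqle, Mmp9 and Atp6v0d2 every OFF3 array lies below every TUM array, and in Myh8, Tnnc2, Dpt and H2-Ab1 every OFF3 array lies above.

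Myogenic regulators rose more often than they fell, 9 against 3 of 19 (median 0.22). Myog, which drives terminal differentiation, read 10.51, 10.37 and 10.33 in OFF3 and 9.31, 9.35 and 9.52 in TUM (1.01 ± 0.14, adjusted p = 0.000121). Myf5, a factor of progenitors whose locus also drove the Cre, read 8.84, 8.70 and 8.70 in OFF3 and 9.59, 9.43 and 9.57 in TUM (-0.78 ± 0.08, adjusted p = 1.67e-05). Myod1 read 10.69, 10.77 and 10.67 in OFF3 and 10.20, 10.24 and 10.19 in TUM (0.50 ± 0.17, adjusted p = 0.0457). That call was lost under several alternative settings and was firmer under others, with limma adjusted p from 2.28e-06 to 0.122. The SD of Myod1 was 0.05 in OFF3 and 0.03 in TUM but 0.50 in OFF6, whose arrays are part of the fit. Smyd1 (1.35 ± 0.16), a methyltransferase of sarcomere assembly, the splicing factors Rbfox1 (0.95 ± 0.13) and Rbm24 (0.89 ± 0.13) and Mef2c (0.80 ± 0.10) rose, and Pax3 fell by 0.48 ± 0.11. Pax7, the satellite cell factor, read 7.12, 7.09 and 7.04 in OFF3 and 7.15, 7.13 and 7.11 in TUM (-0.04 ± 0.08, adjusted p = 0.77) and did not pass. Satellite cell genes as a list split evenly, with 6 rises and 6 falls among 18. Among the rises were Megf10 (1.27 ± 0.20) and the CXCL12 receptor Cxcr4 (1.08 ± 0.16), while the proteoglycan Sdc4 (-1.05 ± 0.08) and the HGF receptor Met (-1.01 ± 0.09) fell. Myog stood well above its CTL mean of 6.99 in both tumour groups.

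Repressors of differentiation gave 8 rises and 3 falls among 19 (median 0.08), with Sox8 (0.99 ± 0.13) and Msc (0.66 ± 0.12) up and Snai1 (-0.71 ± 0.10) and the histone methyltransferase Ezh2 (-0.71 ± 0.10) down. Genes of myoblast adhesion and fusion split as well, with 8 rises and 6 falls among 24. Mymx, a membrane protein that opens the fusion pore, read 9.04, 8.99 and 9.11 in OFF3 and 7.60, 7.55 and 7.71 in TUM (1.43 ± 0.10, adjusted p = 7.16e-07). Mymk, with which it acts, read 12.11, 12.11 and 11.88 in OFF3 and 11.03, 11.11 and 10.99 in TUM (0.99 ± 0.15, adjusted p = 0.000274). Itgb1bp2, a muscle chaperone that binds integrin, read 9.45, 9.24 and 9.54 in OFF3 and 7.50, 7.68 and 7.48 in TUM (1.86 ± 0.09, adjusted p = 4e-08). Among the adhesion molecules Jam2 rose (0.83 ± 0.11), and the cadherin Cdh2 (-1.08 ± 0.16) and Kirrel (-0.72 ± 0.08) fell. Mymk remained far above its CTL mean of 8.35.

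Most contractile genes rose. Of 15 developmental and slow contractile genes 11 rose and 1 fell (median 0.86), and of 13 fast contractile genes 11 rose and none fell (median 0.88), where 13.4% of all genes rose. Perinatal myosin Myh8 read 10.54, 10.39 and 10.64 in OFF3 and 8.17, 7.97 and 8.06 in TUM (2.46 ± 0.17, adjusted p = 5.21e-07). Embryonic myosin Myh3 read 11.25, 11.18 and 11.33 in OFF3 and 9.68, 9.66 and 9.69 in TUM (1.58 ± 0.12, adjusted p = 9.28e-07). Both exceeded their CTL means, 7.88 and 6.94, by more than 2 log2 units in OFF3. Slow troponin Tnni1 (1.54 ± 0.11) and cardiac actin Actc1 (1.40 ± 0.10), an isoform of immature muscle, also rose, and the slow tropomyosin Tpm3 fell by 0.26 ± 0.07, a call not held under every alternative. Tnnc2, fast troponin C, read 11.76, 11.67 and 12.27 in OFF3 and 10.24, 10.15 and 10.08 in TUM (1.74 ± 0.13, adjusted p = 8.25e-07). Myh4, the myosin of the fastest adult fibres, read 11.99, 11.81 and 12.42 in OFF3 and 10.98, 10.86 and 10.83 in TUM (1.18 ± 0.12, adjusted p = 1.01e-05), still below its CTL mean of 13.04. Tnni2 (1.37 ± 0.11) and Mylpf (1.14 ± 0.11) rose as well, while Myh2 did not pass (0.04 ± 0.12).

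All 11 fast contractile genes that rose had a higher mean in CTL than in OFF3, and so did all 21 rising Z-disc genes, all 16 rising muscle energy genes and 15 of 16 rising excitation genes, against 1322 of the 2671 genes that rose overall. The fast contractile genes summed to 48800 to 63200 in OFF3 and 32600 to 34300 in TUM, beside 102000 to 105000 in CTL. How much of the tumour RNA came from host muscle was not tested. OFF3 replicate 3 was the highest OFF3 array in 12 of 13 fast genes, 27 of 27 Z-disc genes, 17 of 20 excitation genes and 19 of 26 energy genes. Without that array 11, 21, 14 and 14 of them rose, with medians of 0.74, 0.74, 0.84 and 0.86. The developmental genes differ from these in that 4 of the 11 rises lay at a CTL mean below TUM.

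Z-disc and thick filament genes rose in 21 of 27 with none lower (median 0.88). Beside Mylk4, Myoz1 (1.84 ± 0.11) and Lmod3 (1.61 ± 0.16), which organise Z-discs and thin filaments, rose. The myosin chaperone Unc45b read 9.50, 9.52 and 9.52 in OFF3 and 7.81, 7.69 and 7.80 in TUM (1.74 ± 0.16, adjusted p = 4.16e-06), with OFF3 arrays within 0.02 of each other. Excitation and calcium handling rose in 16 of 20 (median 0.94). The calcium buffer Pvalb read 11.63, 11.53 and 12.30 in OFF3 and 10.07, 9.82 and 9.73 in TUM (1.95 ± 0.40, adjusted p = 0.00249), with its widest values in OFF3. The calcium channel Cacna1s (1.58 ± 0.16) and the calcium store proteins Srl (1.37 ± 0.11) and Casq1 (1.16 ± 0.11) rose. Energy metabolism of muscle rose in 16 of 26 with none lower (median 0.96), led by the deaminase Ampd1 (1.91 ± 0.16), the mutase Pgam2 (1.83 ± 0.14), the insulin-responsive transporter Slc2a4 (1.80 ± 0.12) and the phosphorylase kinase subunit Phkg1 (1.79 ± 0.20). Creatine kinase Ckm rose by 1.01 ± 0.10.

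At the neuromuscular junction 6 of 14 genes rose and 2 fell (median 0.26). Chrng, the fetal subunit of the acetylcholine receptor, read 10.08, 10.14 and 10.08 in OFF3 and 9.21, 9.25 and 9.24 in TUM (0.87 ± 0.15, adjusted p = 0.000715), against a CTL mean of 6.36. The esterase Ache (0.86 ± 0.11) and its anchor Colq (0.96 ± 0.07) rose, while the receptor subunit Chrnb1 (-0.41 ± 0.10) and the agrin receptor Lrp4 (-0.36 ± 0.07) fell. The number of rises was 3 without OFF3 replicate 2 or TUM replicate 1, and also 3 after centring each array.

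The promoters of Mylk4, Chrng and Myh4 are shown for the E-box CAGCTG, which MyoD and myogenin bind and which reads the same on both strands. It stood in 5 of 10 fast contractile promoters (50%), 6 of 15 developmental and slow ones (40%) and 4 of 10 excitation ones (40%), beside 14.5% of all genes and 3 of 25 mitosis promoters (12%). Lists outside muscle held it as often, with 6 of 12 cartilage promoters (50%), 6 of 15 fibroblast promoters (40%) and 6 of 17 interferon promoters (35.3%). TEAD letters stood in 6 of the 10 fast promoters (60%) and 5 of the 15 slow ones (33.3%), genes that mostly rose. The capitals mark CAGCTG:
Mylk4 (chr13:32783965-32784164, minus strand): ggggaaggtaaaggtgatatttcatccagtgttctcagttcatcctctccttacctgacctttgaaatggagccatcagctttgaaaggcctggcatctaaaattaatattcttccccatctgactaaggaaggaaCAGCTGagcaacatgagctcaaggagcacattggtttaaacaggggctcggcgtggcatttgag
Chrng (chr1:87205611-87205810, plus strand): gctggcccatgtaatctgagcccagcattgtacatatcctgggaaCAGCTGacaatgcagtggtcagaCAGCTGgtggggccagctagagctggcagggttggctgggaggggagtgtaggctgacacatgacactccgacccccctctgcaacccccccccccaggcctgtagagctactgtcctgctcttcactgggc
Myh4 (chr11:67237612-67237811, plus strand): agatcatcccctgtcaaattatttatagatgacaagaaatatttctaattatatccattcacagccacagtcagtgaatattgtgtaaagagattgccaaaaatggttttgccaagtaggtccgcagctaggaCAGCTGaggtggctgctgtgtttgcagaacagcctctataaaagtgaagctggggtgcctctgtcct

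**Figure D4:**
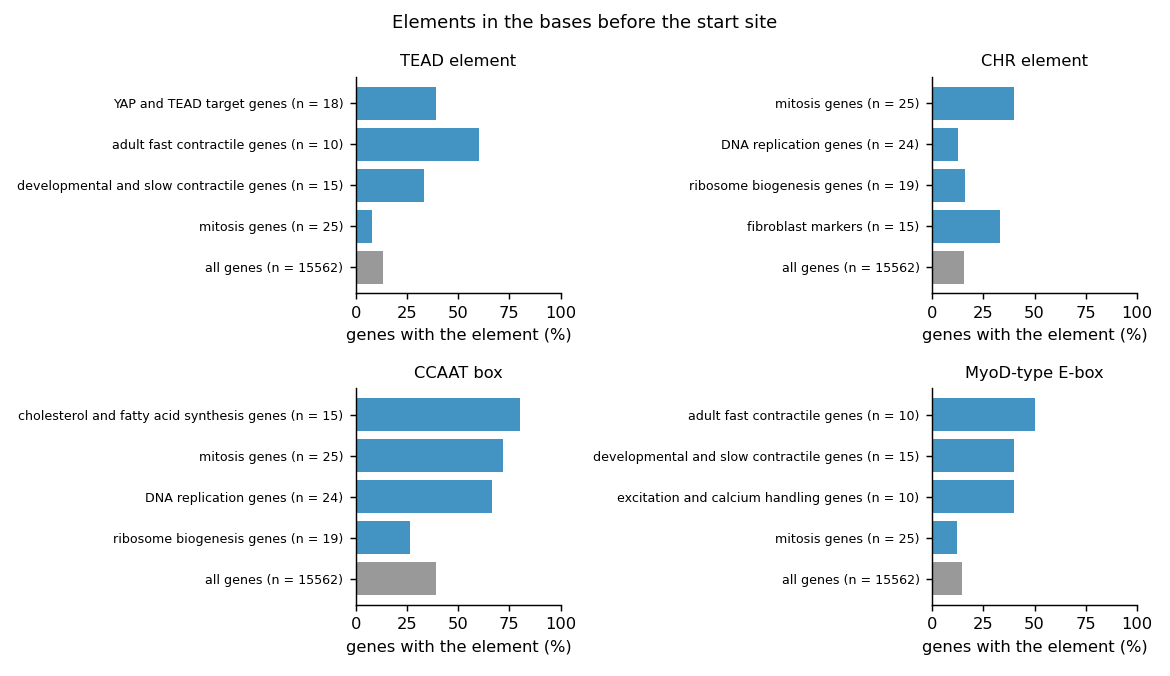
Share of genes (%) whose 250 bases before a listed start hold the TEAD, CHR, CCAAT or MyoD-type E-box letters on either strand, by gene list, beside all 15562 measured genes with a promoter. CCAAT letters reach 80% in sterol and fatty acid genes and 72% in mitosis genes, beside 38.9% of all genes.

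Oncofetal and growth factor genes split by gene. Of 14 oncofetal genes 7 rose and 4 fell (median 0.31). Igf2bp1, an RNA-binding protein of embryonic tissue, read 5.47, 5.57 and 5.54 in OFF3 and 7.65, 7.87 and 7.65 in TUM (-2.20 ± 0.08, adjusted p = 9.5e-09). Hmga2, a chromatin protein of embryonic cells, read 9.54, 9.60 and 9.49 in OFF3 and 10.66, 10.75 and 10.69 in TUM (-1.16 ± 0.06, adjusted p = 6.67e-08). The imprinted genes Plagl1 (1.39 ± 0.20), Grb10 (1.31 ± 0.11), Meg3 (0.80 ± 0.22) and Igf2 rose. The call of Meg3 was lost when adjusted p under 0.01 was required. Igf2, the fetal growth factor, read 12.04, 12.07 and 12.07 in OFF3 and 11.02, 11.00 and 11.03 in TUM (1.04 ± 0.07, adjusted p = 7.15e-07). Among 21 IGF and activin genes 11 rose and 4 fell (median 0.33). The binding proteins Igfbp5 (1.30 ± 0.10), Igfbp2 (0.96 ± 0.14) and Igfbp4 (0.90 ± 0.15) and myostatin, Mstn (0.84 ± 0.18), rose, and the receptor Igf1r (-0.64 ± 0.07) and the activin inhibitor Fstl3 (-0.71 ± 0.14) fell.

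Wnt pathway genes rose in 10 of 22 and fell in 3 (median 0.25). Lgr5, a receptor that strengthens Wnt signals, read 8.87, 8.62 and 8.37 in OFF3 and 6.58, 6.53 and 6.71 in TUM (2.01 ± 0.12, adjusted p = 1.46e-07). Those that rose included the Wnt-binding Sfrp4, the Dkk family member Dkk2 (1.54 ± 0.26) and its relative Dkk3 (1.49 ± 0.14). The ligand Wnt5a (-0.58 ± 0.08) and the Wnt target Axin2 (-0.39 ± 0.13) fell, the second with a call that did not hold under every alternative. Notch genes gave 7 rises and 2 falls among 17 (median 0.19). The effectors Hey1 (0.72 ± 0.10) and Heyl (0.67 ± 0.16), the Hes family member Hes6 (0.73 ± 0.11) and the ligand Jag1 (0.59 ± 0.11) rose. The ligand Dll4 fell (-0.24 ± 0.06), again with a call not held under every alternative. Rbpj, the DNA-binding partner of Notch, fell by 0.31 ± 0.07, but it differed by 0.12 (adjusted p = 0.376) when all its probe sets were averaged.

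Of 19 p53 and apoptosis genes 7 rose and 3 fell (median 0.11). The rises were led by BH3-only genes, which promote apoptosis. Bmf read 8.90, 8.78 and 8.62 in OFF3 and 7.51, 7.56 and 7.38 in TUM (1.28 ± 0.14, adjusted p = 1.95e-05). Bcl2l11, which encodes BIM, read 9.38, 9.23 and 9.05 in OFF3 and 8.03, 8.06 and 8.11 in TUM (1.15 ± 0.14, adjusted p = 4.56e-05). Trp53inp1 (1.04 ± 0.17) and Sesn1 (0.89 ± 0.13), both known p53 targets, rose, whereas the p53 target Mdm2 did not pass (-0.01 ± 0.12). Bid, another BH3-only gene, fell by 0.65 ± 0.14 and the survival gene Bcl2 by 0.54 ± 0.10.

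Most matrix and fibroblast genes rose. Collagen and assembly genes rose in 17 of 24 and fell in 2 (median 0.42), and fibroblast genes in 15 of 23 with none lower (median 0.78). Dpt, which organises collagen fibrils, read 10.98, 10.80 and 10.90 in OFF3 and 8.46, 8.24 and 8.41 in TUM (2.52 ± 0.21, adjusted p = 1.92e-06). Lum, a fibril proteoglycan, read 9.97, 9.83 and 10.43 in OFF3 and 7.73, 7.70 and 8.02 in TUM (2.26 ± 0.26, adjusted p = 3.17e-05). The fibroblast protease Fap (1.93 ± 0.18), tenascin Tnc (1.66 ± 0.15) and the receptor Pdgfra (1.18 ± 0.20) rose with them. Col6a3, of the collagen around muscle fibres, read 11.06, 11.11 and 10.81 in OFF3 and 9.31, 9.51 and 9.41 in TUM (1.58 ± 0.09, adjusted p = 9.82e-08), and Col6a2 rose by 1.10 ± 0.09. Col1a1 rose by 0.47 ± 0.07, but Col1a2, the other chain of type I collagen, did not pass (0.05 ± 0.07). The cross-linking enzyme Loxl3 fell by 0.47 ± 0.11. Fibroblast genes summed to 58100 to 61100 in OFF3 and 41600 to 43500 in TUM, against 31000 to 32200 in CTL, and without OFF3 replicate 3 the count of rises was again 15.

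Integrins and adhesion proteins moved both ways, with 11 rises and 8 falls among 25. The rises numbered 7 without OFF3 replicate 2, TUM replicate 1 or TUM replicate 3, or after centring each array, and the falls 5 without OFF3 replicate 3 or any single TUM array. Itga11, a collagen receptor of fibroblasts, read 9.12, 9.04 and 8.93 in OFF3 and 7.05, 7.15 and 7.09 in TUM (1.94 ± 0.10, adjusted p = 5.16e-08). Itga3, a laminin receptor, read 7.99, 8.19 and 7.56 in OFF3 and 9.71, 9.98 and 9.74 in TUM (-1.89 ± 0.14, adjusted p = 8.58e-07). Laminin Lama4 rose by 1.18 ± 0.11 and parvin Parva fell by 0.67 ± 0.09. Proteases split as well, 7 against 7 of 23. Mmp9, a gelatinase, read 9.33, 9.40 and 8.83 in OFF3 and 12.09, 12.03 and 12.08 in TUM (-2.88 ± 0.23, adjusted p = 1.33e-06), and the urokinase gene Plau (-1.20 ± 0.08) and its receptor Plaur (-1.75 ± 0.12) fell. Mmp3 (1.86 ± 0.35), Adam12 (1.23 ± 0.15), Mmp13 (1.21 ± 0.29) and Mmp19 (1.06 ± 0.08) rose.

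Genes of osteoclasts, the fused bone-resorbing relatives of macrophages, held some of the deepest falls. Of 20 measured 11 fell and 2 rose (median -0.44). Atp6v0d2, a proton pump subunit, read 7.07, 6.74 and 6.77 in OFF3 and 10.13, 10.03 and 10.06 in TUM (-3.21 ± 0.15, adjusted p = 3.07e-08). Oscar, a costimulatory receptor, read 5.59, 5.61 and 5.83 in OFF3 and 8.79, 8.93 and 8.74 in TUM (-3.14 ± 0.10, adjusted p = 3.4e-09). Ocstamp, a fusion protein, read 5.99, 6.45 and 6.23 in OFF3 and 8.66, 8.66 and 8.70 in TUM (-2.45 ± 0.11, adjusted p = 2.77e-08). OFF3 lay below TUM by over 2 log2 units on every array of the 3 genes. Dcstamp, a second fusion protein (-1.78 ± 0.09), the collagen-cleaving protease Ctsk (-1.43 ± 0.19) and the phosphatase Acp5 (-0.96 ± 0.13) also fell, and the decoy receptor Tnfrsf11b rose by 0.55 ± 0.10. The receptor Tnfrsf11a did not pass (-0.34 ± 0.14). The sum over the list was 8480 to 9090 in OFF3 and 17300 to 17500 in TUM, and 5210 to 5420 in CTL. Csf1, a growth factor on which macrophages and osteoclasts depend, read 9.07, 8.98 and 8.84 in OFF3 and 10.51, 10.35 and 10.49 in TUM (-1.49 ± 0.09, adjusted p = 2.9e-07).

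Of 29 macrophage genes 7 rose and 4 fell (median 0.19), and their sum was 50400 to 53600 in OFF3 and 44900 to 45800 in TUM, far above 13400 to 14300 in CTL. The general marker Adgre1 read 11.77, 11.61 and 11.65 in OFF3 and 11.14, 11.18 and 11.14 in TUM (0.52 ± 0.16, adjusted p = 0.0263), while the Csf1 receptor Csf1r did not pass (0.36 ± 0.15, adjusted p = 0.0992). Mertk (1.09 ± 0.19), a receptor for dying cells, and Aif1 (0.77 ± 0.16) rose. Msr1, the scavenger receptor, read 9.83, 9.78 and 9.46 in OFF3 and 10.80, 10.77 and 10.88 in TUM (-1.12 ± 0.10, adjusted p = 4.02e-06), and Gpnmb (-0.69 ± 0.14) and Itgam (-0.66 ± 0.21) fell as well. The count of rises went to 4 when OFF3 replicate 1, TUM replicate 1 or TUM replicate 2 was left out, and was 14 from the 6 arrays alone.

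Genes of dendritic cells and of the MHC class I and class II pathways rose in 10 of 17 with none lower (median 0.56). H2-Ab1, a class II beta chain, read 12.34, 12.25 and 11.94 in OFF3 and 10.27, 10.36 and 10.31 in TUM (1.86 ± 0.13, adjusted p = 6.07e-07). H2-Aa, its alpha chain, read 11.97, 12.07 and 11.81 in OFF3 and 10.22, 10.22 and 10.30 in TUM (1.71 ± 0.11, adjusted p = 4.24e-07). The beta chain H2-Eb1 (1.60 ± 0.13), the invariant chain Cd74 (1.46 ± 0.10) and Ciita (1.52 ± 0.13), the master regulator of class II genes, rose with them. The dendritic cell receptors Xcr1 (1.39 ± 0.23) and Cd209a (1.43 ± 0.22) rose too. Of the class I pathway, the light chain B2m (0.00 ± 0.08) and the peptide transporter Tap1 (0.13 ± 0.08) did not pass. OFF3 replicate 3 was the lowest OFF3 array in 15 of the 17, and without it 11 rose. Interferon response genes rose in 7 of 21 and fell in 1 (median 0.09), with Cxcl9 (1.18 ± 0.10) and Oas2 (0.71 ± 0.10) up and Cxcl10 (-0.78 ± 0.25) down. Without OFF3 replicate 3, 7 rose and 0 fell, with a median of 0.18.

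Lymphocyte and NK genes split, with 6 rises and 7 falls among 23, and 3 rises without OFF3 replicate 2 or TUM replicate 2. Prf1, perforin, read 7.49, 7.45 and 7.07 in OFF3 and 8.73, 8.78 and 8.83 in TUM (-1.44 ± 0.12, adjusted p = 2.48e-06), and the granzymes Gzmb (-0.82 ± 0.20), Gzmd (-1.25 ± 0.25), Gzme (-1.39 ± 0.26) and Gzmg (-1.39 ± 0.25) fell, of which the last 3 are near-identical and may share signal. Ncr1, a receptor of NK cells, rose by 0.98 ± 0.25 and Cd4 by 0.91 ± 0.22. The call of Ncr1 was lost when adjusted p under 0.01 was required. The T and B cell genes Cd3e (5.96, 6.11 and 6.18 in OFF3 and 6.04, 5.99 and 5.93 in TUM), Cd8a, Cd79a and Ms4a1 did not pass. Cd79a and Ms4a1 lay at 4.30 to 4.54 over the 6 arrays.

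Mast cell genes rose in 7 of 10 and fell in 1 (median 0.78), but the number of rises fell to 0 without OFF3 replicate 3 and to 1, 1 and 2 without TUM replicates 1, 2 and 3. Tpsab1, a tryptase, read 8.77, 8.86 and 9.58 in OFF3 and 7.91, 7.96 and 7.94 in TUM (1.13 ± 0.34, adjusted p = 0.0243), and Cpa3, a carboxypeptidase, read 10.81, 10.63 and 11.27 in OFF3 and 9.83, 9.82 and 9.83 in TUM (1.08 ± 0.30, adjusted p = 0.0148). The third OFF3 array was the highest in both. Neutrophil genes gave 3 rises and 1 fall among 17 (median 0.10), with the receptor Csf3r (1.19 ± 0.17) up and Lcn2 (-1.37 ± 0.10) down. Without OFF3 replicate 3, 2 rose and the median was 0.04. Cytokine and chemokine genes gave 11 rises and 6 falls among 32 (median 0.07), with 7 rises without OFF3 replicate 1 or TUM replicate 1 and 3 falls without TUM replicate 3. The monocyte attractant Ccl8 (1.96 ± 0.36), Ccl3 (0.98 ± 0.08) and Il1a (0.98 ± 0.13) rose, and Cxcl12 (-0.70 ± 0.10) fell.

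Endothelial genes rose in 16 of 21 and fell in 2 (median 0.51). Vwf, the clotting factor stored in endothelium, read 7.95, 8.11 and 7.99 in OFF3 and 6.80, 6.95 and 6.75 in TUM (1.18 ± 0.13, adjusted p = 2.26e-05). The receptor phosphatase Ptprb (0.92 ± 0.09), the angiopoietin receptor Tek (0.88 ± 0.13), the apelin receptor Aplnr (0.88 ± 0.12) and Pecam1 (0.54 ± 0.08) rose. The fallen pair, Esm1 (-0.91 ± 0.07) and Apln (-0.51 ± 0.13), are known from the tip cells of growing vessels, and the call of Apln did not hold under every alternative. Pericyte genes rose in 9 of 15 and fell in 1 (median 0.32), with Abcc9 (1.41 ± 0.11) and Rgs5 (1.25 ± 0.13) up and Cspg4 (-0.52 ± 0.11) down.

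Keratin and epithelial genes rose in none of 20 and fell in 7 (median -0.06, and -0.10 without OFF3 replicate 3). The list was chosen with earlier results of these data known, and it holds Clca3a1, Clca3a2 and Sprr1a, which are among the 12 largest falls. Krt8, a keratin of simple epithelia, read 10.32, 10.29 and 10.18 in OFF3 and 11.93, 12.02 and 11.86 in TUM (-1.67 ± 0.16, adjusted p = 6.09e-06), and its partner Krt18 fell by 0.91 ± 0.18. Sprr1a read 7.47, 7.63 and 6.81 in OFF3 and 10.41, 10.39 and 10.51 in TUM (-3.13 ± 0.20, adjusted p = 2.85e-07). Epcam, a defining epithelial marker, read 5.03, 4.98 and 5.07 in OFF3 and 4.96, 4.98 and 4.76 in TUM (0.13 ± 0.09, adjusted p = 0.344) and did not pass. The sum over the list was 2670 to 2740 in OFF3 and 8070 to 8180 in TUM. Of the remaining lists, adipocyte genes rose in 4 of 14 (Pparg, 0.98 ± 0.12, and Cebpa, 0.69 ± 0.16, among them), cartilage genes in 5 of 15 (Cilp, 1.10 ± 0.11, and Comp, 0.68 ± 0.07), Schwann cell genes in 2 of 9 (Scn7a, 1.63 ± 0.21) and erythroid genes in 1 of 7, and none of these 4 lists held a fall.

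Probe sets for 296 miRNA genes were measured, of which 9 rose and 16 fell (median 0.03), below the share of all genes. They read the gene or its hairpin, not the mature miRNA. The mature arms of the 3 largest falls and the 2 largest rises are shown, as RefSeq gives them, with the seed, bases 2 to 8, in capitals. No seed was shared among them:
mmu-miR-125b-5p: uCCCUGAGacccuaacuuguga
mmu-miR-18a-5p: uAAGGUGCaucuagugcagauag
mmu-miR-19a-3p: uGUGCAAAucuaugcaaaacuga
mmu-miR-15a-5p: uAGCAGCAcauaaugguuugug
mmu-miR-505-3p: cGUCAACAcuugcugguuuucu
Mir125b-1 read 4.95, 4.83 and 4.86 in OFF3 and 5.55, 5.92 and 5.99 in TUM (-0.94 ± 0.10, adjusted p = 1.75e-05), the gene lying at chr9:41581940-41581961 for this arm. Mir18 (-0.94 ± 0.16) and Mir19a (-0.54 ± 0.10), which lie in one cluster on chromosome 14, fell, and Mir15a (0.88 ± 0.17) and Mir505 (0.60 ± 0.17) rose. The 3 falls were at low levels. Their OFF3 means, 4.88 for Mir125b-1, 5.32 for Mir18 and 4.36 for Mir19a, lay under 5.36, the 25th percentile of gene means over all arrays.

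The further course at 6 days and in control muscle places these values. Myh8 averaged 8.07 at day 0, 10.52 at day 3 and 11.92 at day 6, beside 7.88 in CTL. Mylk4 averaged 6.44, 9.41 and 8.23 at days 0, 3 and 6, and 12.30 in CTL. Atp6v0d2 averaged 10.07, 6.86 and 5.76 at those days, and 5.19 in CTL. The day 6 mean of Myh8 was above that of day 3, and the day 6 mean of Mylk4 lay between those of days 0 and 3. Between days 3 and 6, 10.4% of all genes passed, 6.05% higher and 4.38% lower in OFF6, in a contrast that shares the OFF3 arrays with OFF3 minus TUM and whose count was 30 genes when its 6 arrays were fitted alone. OFF6 replicate 2 stood apart from the other OFF6 arrays on the third component of all 12 arrays, which held 4.2% of the variance, at -6.4 against 26.3 and 26.0, with OFF3 at -16.9 to -13.6.

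**Figure D5:**
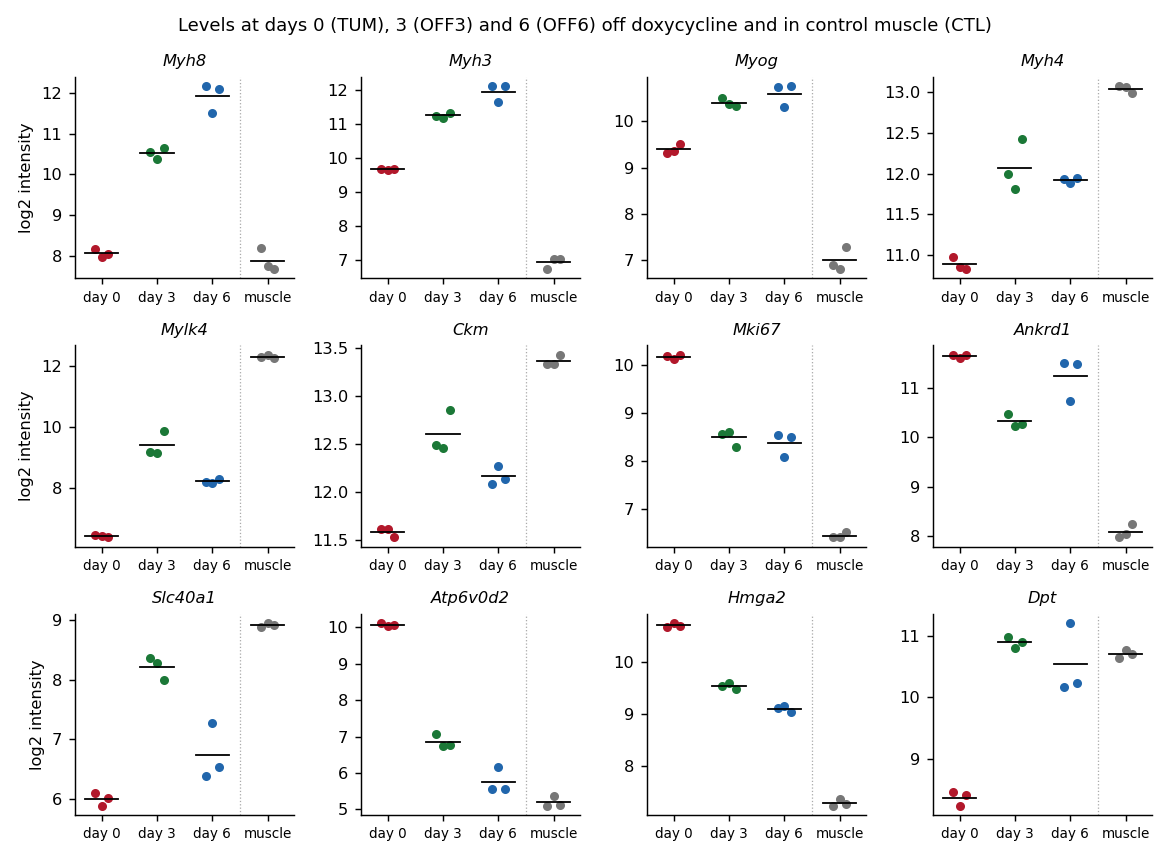
Log2 intensity of 12 genes at day 0 (TUM), day 3 (OFF3) and day 6 (OFF6) without doxycycline and in control muscle (CTL), with points for single arrays (3 per group) and a horizontal line at each group mean. Myh8 is highest at day 6, whereas Mylk4 is highest in CTL, with its tumour peak at day 3.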

How the data were processed

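Mouse tumours and control muscle were profiled on one-colour arrays, 12 in all, 3 in each of 4 groups. The deposited values are intensities on a linear scale that the authors made with RMA, per the submitters' processing notes; its version is not given in the sources used here. Array medians of these deposited intensities were 86.74 to 93.05. Here the intensities were put on the log2 scale with no further normalization. Of 34760 probe sets, 21640 had 1 gene symbol in the platform annotation, 1321 several and 11799 none. The probe set with the highest mean was kept per gene, giving 19937 genes, of which 19855 matched RefSeq.

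limma 3.58.1 in R 4.3.3 (lmFit and eBayes, a mean per group over 12 arrays, two-sided, Benjamini-Hochberg adjusted p under 0.05) gave OFF3 minus TUM and OFF6 minus OFF3. The number of arrays limits the precision, and the median standard error was 0.0863 log2 units. The code was tested on simulated data. The gene lists (46, with 897 of 948 written symbols measured), the named genes and the comparison itself were chosen with earlier results of these data known. Named genes were a set of YAP, cell cycle and muscle genes, the 12 largest rises and 12 largest falls with groups apart, and in each list up to 4 called members with the majority and 2 against it; any others in the text were chosen after their values were seen. Promoters came from RefSeq (GRCm38.p6), with a gene counted if any listed start held the letters. Alternatives covered scaling, array weights, the arrays fitted, probe set choice, thresholds, the replicate number as a block and leaving out each array.

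Same-numbered OFF3 and TUM arrays had correlations of their deviations from the group means of -0.01, 0.25 and -0.29, so the numbers were not taken to pair samples.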

Additional observations from a re-analysis of the deposited data

Results flagged for a closer look

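Of 43 named genes looked at for a change between day 3 and day 6, 15 passed the test of OFF6 minus OFF3 in limma. Among all genes 10.4% passed, 6.05% higher and 4.38% lower in OFF6. Some of the 43 were picked as the largest rises and falls in OFF3 minus TUM, which uses the same OFF3 arrays. How far that choice shaped the counts below was not tested. Values below are OFF6 minus OFF3 in log2 units. Of 18 of the 43 genes that had risen by day 3, 3 were higher in OFF6, 5 were lower and 10 did not pass. Myh8 differed by 1.40, Myh3 by 0.70 and Myod1 by 0.65, while Slc40a1 differed by -1.48, Mylk4 by -1.18, Itih5 by -0.89, Lrrc15 by -0.78 and Ckm by -0.44. Of 23 that had fallen by day 3, 5 were lower in OFF6, 1 was higher and 17 did not pass. Atp6v0d2 differed by -1.11, Mmp9 by -0.77, Dynap by -0.65, Rpp25 by -0.65 and Hmga2 by -0.44, and Ankrd1 by 0.92. Ccn2, which had not passed at day 3, differed by 0.33.

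OFF6 replicate 2 stood apart from the other OFF6 arrays, towards OFF3. Myod1 read 11.65, 10.79 and 11.65 in OFF6 and 10.69, 10.77 and 10.67 in OFF3, and Itih5 read 7.09, 8.20 and 7.16 in OFF6 and 8.25, 8.20 and 8.65 in OFF3, so in both genes this array lay near OFF3. All 15 genes passed without it, with Myod1 at 0.94 and Itih5 at -1.24. They had been picked for passing, and without this array the calls among all genes went from 2080 to 4874, so this is no independent check. Leaving out any other OFF6 or OFF3 array ended the calls of Myod1 and Itih5. Leaving out some of those other arrays also ended the calls of Mmp9, Dynap, Lrrc15, Rpp25, Ccn2 and Ckm. With the 6 OFF6 and OFF3 arrays fitted alone in limma, only Myh8 kept its call. Slc40a1 (adjusted p = 0.058) and Mmp9 (adjusted p = 0.184) were among those that lost it. This contrast shares the OFF3 arrays with OFF3 minus TUM.

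Probe sets outside the gene-level values also changed between OFF3 and TUM. Of 1321 probe sets with several symbols 205 passed, 86 higher and 119 lower. Of 11799 with no symbol 1037 passed, 427 higher and 610 lower. Both are smaller shares than the 29.4% of genes that passed. They are not named here.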

How the results depend on the processing

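The 5868 genes that changed in OFF3 minus TUM numbered 4541 to 5829 when single arrays were left out (2028 to 2570 higher, 2494 to 3259 lower) and 4913 to 6619 under the other alternatives, apart from array weights with 11175 (6181 higher, 4994 lower), adjusted p under 0.01 with 3931 (1723 higher), and the 2-fold rule with 760 (365 higher, 395 lower). OFF6 minus OFF3 was less stable. Its 2080 calls numbered 452 to 4874 without single arrays (318 to 2401 higher, 134 to 2473 lower), with the highest count without OFF6 replicate 2, the lowest without OFF6 replicate 3, and 990, 905 and 521 without OFF3 replicate 1, OFF3 replicate 2 and OFF6 replicate 1. They numbered 8424 with array weights (4120 higher, 4304 lower), 30 from the 6 arrays alone (19 higher, 11 lower), 467 at adjusted p under 0.01 (324 higher, 143 lower) and 108 at 2-fold (76 higher, 32 lower), and centring gave 568 lower. The cause was not tested, other than fewer arrays or a stricter rule. With the replicate number as a block, which the data do not bear out as a pairing, 5476 genes changed in OFF3 minus TUM and 1654 in OFF6 minus OFF3. Rbpj reversed, to 0.12, with all probe sets averaged. Named genes called in OFF3 minus TUM kept the call in 3484 gene and setting pairs and lost it in 129, and 1 call was gained. Calls were lost for Myod1, Axin2, Cxcl10, Tpsab1, Cpa3, Tpm3, Dll4, Apln, Slc7a5 and Epor, among others, and at adjusted p under 0.01 for Aldoa, Meg3 and Ncr1. The setting with every probe set gives no value per gene.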

Other observations

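A few gene groups outside the lists were picked after their values were seen, and are given as values in OFF3 minus TUM, where 13.4% of all genes rose and 16% fell. Circadian clock genes rose in 8 of 14 and fell in 1. Dbp, a clock output factor, read 9.31, 9.30 and 9.23 in OFF3 and 7.24, 7.27 and 7.51 in TUM (1.94 ± 0.08, adjusted p = 1.96e-08). Per3 (1.24), Tef (1.16), Nr1d2 (0.85) and Nr1d1 (0.79) rose, and the activator Arntl fell by 0.44. The labels used here give no time of day at which tumours were taken.

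Complement genes rose in 6 of 8 with none lower, led by C7 (2.20), C4b (1.57) and C1s1 (1.22). Of 8 genes for bone morphogenetic proteins and their antagonists 4 rose, namely the ligands Bmp2 (0.93), Bmp5 (0.67) and Bmp6 (0.44) and the antagonist Chrd (0.50), and Bmp4 fell (-2.84). Guidance genes fell in 4 of 6, with Sema3e at -2.09 and the ephrin receptor Epha2 at -1.94, and Epha3 rose by 1.54. Iron genes moved both ways, 3 up and 2 down of 6. The exporter Slc40a1 rose by 2.21, while the iron hormone Erfe fell by 1.98 and the transferrin receptor Tfrc by 1.00.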
